A study of Homo sapiens with 6 samples.

Results

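The genes described here are the regulators of the antioxidant response in human cells: KEAP1, CUL3 and SQSTM1, which control how long the activator NRF2 lives, the activators NFE2L1, NFE2L2 (the gene of NRF2) and NFE2L3, the repressors BACH1 and BACH2, and the small MAF partners MAFG and MAFK. They were chosen by name for their role in the pathway, with earlier results of these data known. All 10 were found among the 23686 genes of the count tables. RNA was sequenced from 6 samples of GFP+ HEK293 cells, an established human embryonic kidney line grown in high-glucose medium with serum. In the ROS co-culture group (3 samples) the GFP+ cells had been kept for 10 h with HEK293 cells that carry DAAO and were given 25 µM D-alanine. D-amino acid oxidase, for which DAAO usually stands, makes hydrogen peroxide, a reactive oxygen species (ROS), from D-amino acids. The labels give the genotype of the sampled cells only as GFP+, and the human gene DAO had 0 reads in all 6 libraries. The control group (3 samples) held GFP+ cells titled wild type (Wt), and both groups were sorted for GFP by flow cytometry. The labels repeat the co-culture protocol for all 6 samples, so whether the controls received D-alanine or had partner cells is not given in the sources used here. Nor do they say whether the replicates came from separate cultures, so p-values measure the spread between these samples, which may be technical.

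In resting cells KEAP1 binds NRF2 and, as the adaptor of a ubiquitin ligase built on CUL3, sends it to the proteasome. Oxidants modify cysteines of KEAP1, NRF2 then accumulates, pairs with a small MAF protein and binds antioxidant response elements in front of detoxification genes. BACH1 and BACH2 pair with the same small MAF proteins and hold such genes down, and SQSTM1, a receptor of selective autophagy, can pull KEAP1 into degradation. Most of this control acts on the proteins, which RNA counts do not measure.

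The libraries held 19091085 to 36250314 reads assigned to genes on the reverse strand, and each of the 10 regulators had at least 476 reads in every library. The labelled cell line was checked with 5 genes that HEK293 cells express (PAX2, LHX1, NEFL, NEFM and INA). All 5 were detected, and their summed level was 251 to 312 CPM (gene reads scaled to a common library size, with TMM correction for composition) in the controls and 322 to 337 CPM in co-culture. This sum therefore moved with the group, and its part in the results was not tested. Its largest part was NEFL, at 132 to 177 CPM in the controls and 186 to 190 CPM in co-culture (edgeR log2 fold change 0.28, adjusted p 0.102). INA, a neurofilament gene, was past the threshold used below (0.38, edgeR adjusted p 0.0118). NEFM stood at 0.12, LHX1 at 0.04 and PAX2 at -0.24 without passing. Leukocyte markers summed to at most 0.261 CPM and endothelial markers to at most 0.614 CPM in any library, with CD3E at 0 reads in all 6. The fibroblast list (COL1A1, COL3A1, DCN and LUM) summed to 44.5 to 59.3 CPM in the controls and 49.1 to 53.5 CPM in co-culture. Within it LUM passed and was lower in co-culture (5.90 to 7.65 against 9.35 to 11.6 CPM, edgeR log2 fold change -0.67 and adjusted p 0.0293), COL3A1 stood at -0.95 and COL1A1 at 0.28 without passing, and their part in the results was not tested. Co-culture libraries 2 and 3 stood apart in their reads on the unexpected forward strand, a median of 0.124% and 0.211% per gene against 1.57% to 1.75% in the other 4 libraries. The fit that takes this strand class as a batch is given beside the results. In it co-culture library 1 is the only co-culture sample set against the controls.

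Promoter sequences show whether the regulator genes carry the short elements that the activators, repressors and small MAF proteins among them bind. RefSeq start-site windows of 300 bases (build GRCh38.p14) were at hand for 9 of the 10 genes, 17 windows in all, with no entry for MAFK. Searched on both strands, the core of the antioxidant response element, TGACNNNGC, was present in 1 window, of KEAP1, and in 13.3% of all 35116 promoter windows. The core shared by AP-1 and MAF-type elements, TGANTCA, was present in 1 window, of BACH1, and in 7.71% of all windows. The motifs can overlap each other, and no match means only that these letters are not in the window. The matches are shown in capitals, on the strand of the gene, with 10 bases on each side.
KEAP1, chr19:10502807-10502835, minus strand: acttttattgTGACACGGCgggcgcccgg
KEAP1, chr19:10502784-10502812, minus strand: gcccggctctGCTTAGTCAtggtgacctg
BACH1, chr21:29298864-29298890, plus strand: gcggaaggagTGAGTCAcctgaccgct
Both KEAP1 matches lie in 1 of its 2 windows, and the other window has 0. They end 46 and 23 bases before the start site of that 1 window, and the one nearer to it reads TGACNNNGC on the opposite strand. The BACH1 match ends 42 bases before a start site. GENCODE release 29 annotates all 29 bases of each KEAP1 stretch and 20 bases of the BACH1 stretch as exons of other transcripts of the same gene. Such matches describe the sequence and say nothing of binding in these cells.

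The comparison asked how the RNA of these regulators differs between the ROS co-culture group and the controls. ROS levels were not among the data used here. MAFK, a small MAF partner without a transactivation domain, rose in co-culture, and it was the 1 regulator of 10 past an adjusted p of 0.05 in edgeR's quasi-likelihood test. Over all 14582 genes tested 4.83% passed, 2.66% higher and 2.17% lower. The differences of the other 9 were between -0.21 and 0.28 on the log2 scale. At an unadjusted p under 0.05 there were 5 of the 10 (NFE2L1, NFE2L3 and MAFK higher, KEAP1 and SQSTM1 lower), against 23.2% of all genes. In 5 of the 10 the CPM values of the groups were separate (NFE2L1, NFE2L3, BACH1 and MAFK higher, KEAP1 lower), against 29.3% of all genes (2088 genes higher and 2182 lower). With scaling by total counts BACH1 overlapped and SQSTM1 was separate and lower, so the number stayed at 5. The median log2 difference of the 10 regulators was 0.07, beside 0.00 for all genes tested.

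**Figure D1:**
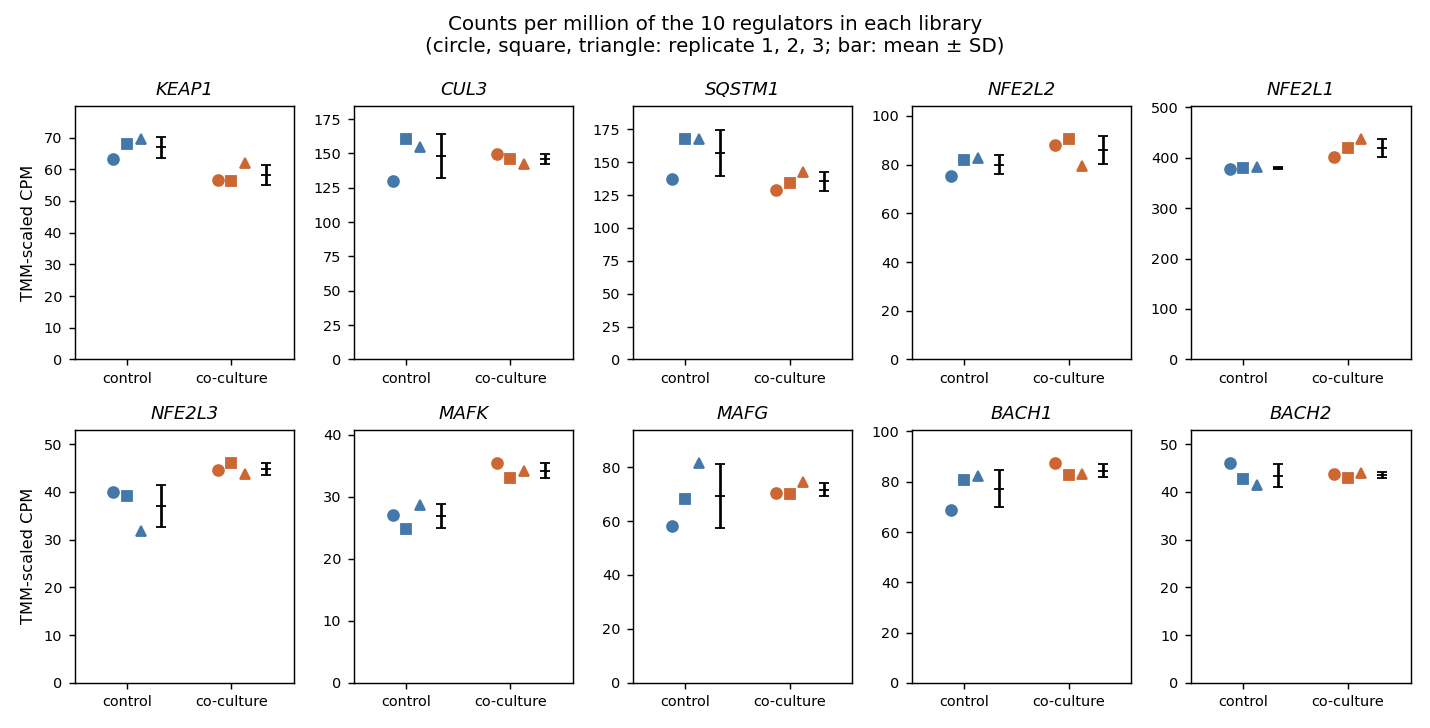
TMM-scaled CPM (y axis, from 0) of each regulator in the 3 control and 3 co-culture libraries, with symbols for the replicate number and bars for the group mean ± SD. MAFK stands at 24.8 to 28.7 CPM in the controls and 33.1 to 35.5 CPM in co-culture, while the CUL3, MAFG and BACH2 groups overlap.

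Among the small MAF partners, MAFK had 27.1, 24.8 and 28.7 CPM in controls 1, 2 and 3 and 35.5, 33.1 and 34.1 CPM in co-culture libraries 1, 2 and 3. Every co-culture library lay above every control. The mean was 26.9 ± 1.94 CPM in the controls and 34.2 ± 1.23 CPM beside the DAAO cells (SD, n = 3). In edgeR this is a log2 fold change of 0.35 with SE 0.08, a 95% interval of 0.18 to 0.52 and an adjusted p of 0.0314, or a rise of 27.2%. MAFK did not pass once co-culture library 1, 2 or 3 or control 2 was left out. In these fits the edgeR adjusted p was 0.141, 0.129, 0.0786 and 0.152, for 0.32, 0.37, 0.35 and 0.29 on the log2 scale. It also did not pass with the batch term (0.40, edgeR adjusted p 0.234), with a term for replicate number (0.35, edgeR adjusted p 0.0830) or with strand ignored (0.29, edgeR adjusted p 0.0933). The last setting bears on MAFK itself, since 809 exonic bases of it are shared with TMEM184A on the opposite strand in GENCODE release 29, and counting without strand kept 66.5% to 73.4% of its reads.

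MAFG, the other small MAF of the set, can stand in for MAFK in the same dimers. It had 58.2, 68.1 and 81.6 CPM in controls 1, 2 and 3 and 70.2, 70.2 and 74.3 CPM in co-culture libraries 1, 2 and 3. The controls spread more widely than the co-culture libraries and enclosed them. The log2 fold change was 0.04 (SE 0.10, adjusted p 0.834 in edgeR), with a 95% interval of -12.2% to 21.2%. MAFF, the small MAF gene outside the set, is listed with the partner proteins below.

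KEAP1, the sensor that holds NRF2, had 63.2, 68.1 and 69.5 CPM in controls 1, 2 and 3 and 56.8, 56.2 and 62.0 CPM in co-culture libraries 1, 2 and 3. All co-culture values lay below all control values, with a gap of little more than 1 CPM between co-culture library 3 and control 1. For KEAP1 the log2 fold change was -0.20 (SE 0.07, adjusted p 0.116 in edgeR) and did not pass. As a percentage its 95% interval was -21.4% to -3.25%. KEAP1 passed in 1 of the 15 other settings, without control 1 (-0.24, edgeR adjusted p 0.0119), a fit where 20.8% of all genes passed. With the batch term it was -0.24 and did not pass.

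CUL3, the scaffold of the ligase, had 130, 160 and 155 CPM in controls 1, 2 and 3 and 150, 146 and 142 CPM in co-culture libraries 1, 2 and 3. The co-culture values lay inside the control range. Its log2 fold change was -0.02 (SE 0.08, adjusted p 0.885 in edgeR), with a 95% interval of -12.6% to 10.7%. The CUL3 log2 fold change was -0.11 without control 1 and 0.01 with the batch term.

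SQSTM1, the autophagy receptor that binds KEAP1 and is itself a known NRF2 target, had 137, 167 and 167 CPM in controls 1, 2 and 3 and 129, 134 and 143 CPM in co-culture libraries 1, 2 and 3. Control 1 lay among the co-culture values, and the other 2 controls lay above them. For SQSTM1 the log2 fold change was -0.21 (SE 0.08, adjusted p 0.149 in edgeR) and did not pass. SQSTM1 passed in 1 of the 15 other settings, without control 1 (-0.30, edgeR adjusted p 0.000758), where 20.8% of all genes passed. Without control 2 it was -0.17 (edgeR adjusted p 0.400), and with the batch term -0.29 without passing. On the opposite strand up to 8.94% of the reads over SQSTM1 were found, more than over any other regulator except NFE2L3, and GENCODE release 29 places 1384 bases of MRNIP exons there.

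NFE2L2, the gene of NRF2, had 75.5, 81.8 and 82.6 CPM in controls 1, 2 and 3 and 88.2, 90.4 and 79.5 CPM in co-culture libraries 1, 2 and 3. Co-culture libraries 1 and 2 were above all controls and library 3 was among them. Its log2 fold change was 0.10 (SE 0.07, adjusted p 0.395 in edgeR), with a 95% interval of -3.24% to 19.4%. NRF2 protein, the level at which KEAP1 acts, was not measured.

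NFE2L1, a membrane-anchored activator known for inducing proteasome genes, had 377, 380 and 381 CPM in the controls and 401, 418 and 436 CPM in co-culture libraries 1, 2 and 3. The controls lay within 5 CPM of each other and all co-culture libraries were above them. NFE2L1 had a log2 fold change of 0.14 (SE 0.06, adjusted p 0.182 in edgeR), and it was 0.08 (SE 0.09) with the batch term. It passed in 0 of the 15 other settings.

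NFE2L3, the third activator of the family, had 40.0, 39.2 and 31.9 CPM in controls 1, 2 and 3 and 44.6, 46.1 and 43.7 CPM in co-culture libraries 1, 2 and 3. The groups did not overlap, and control 3 was lower than the other controls. The log2 fold change of 0.28 (SE 0.09, adjusted p 0.0934 in edgeR) did not pass. Without control 3 it was 0.18, and with the batch term it was 0.27 without passing. NFE2L3 passed in 1 of the 15 other settings, without control 1 (0.34, edgeR adjusted p 0.00652), where 20.8% of all genes passed. Reads on the opposite strand made up 6.56% to 16.2% of the reads over NFE2L3.

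BACH1, the repressor that haem releases from DNA, had 68.8, 80.6 and 82.2 CPM in controls 1, 2 and 3 and 87.6, 82.7 and 83.1 CPM in co-culture libraries 1, 2 and 3. The lowest co-culture library and the highest control were less than 1 CPM apart, and control 1 was the low library. The log2 fold change was 0.13 (SE 0.07, adjusted p 0.329 in edgeR), and 0.05 without control 1.

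BACH2, its relative best known from B cells, had 46.1, 42.8 and 41.4 CPM in controls 1, 2 and 3 and 43.7, 42.9 and 44.1 CPM in co-culture libraries 1, 2 and 3. The groups overlapped throughout. BACH2 had a log2 fold change of 0.01 (SE 0.07, adjusted p 0.970 in edgeR), with a 95% interval of -9.44% to 11.3%.

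**Figure D2:**
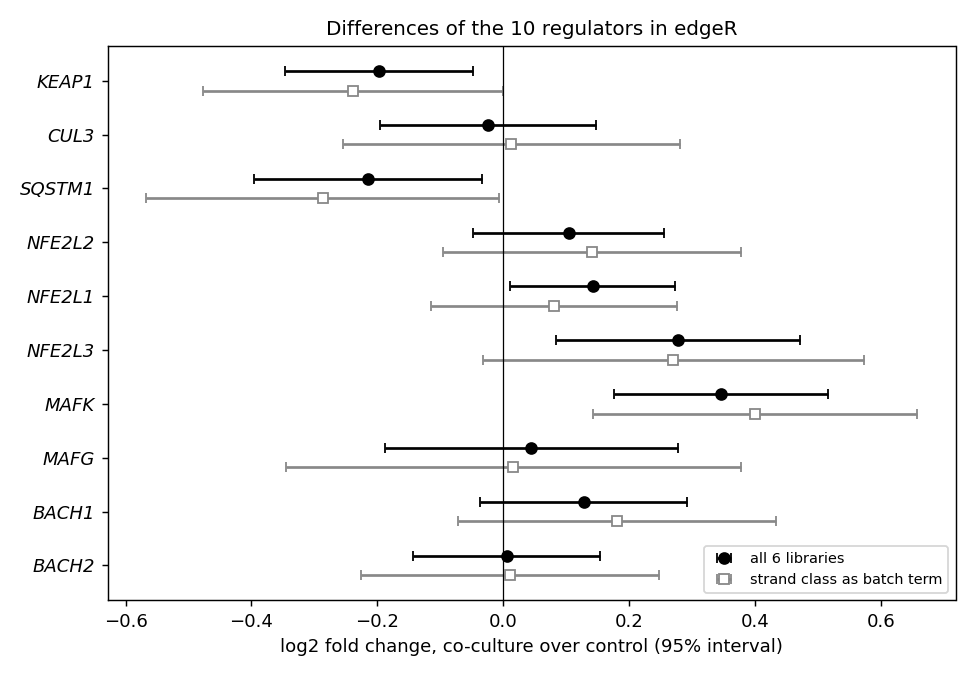
Log2 fold change of each regulator (x axis, co-culture over control) with its 95% interval in edgeR, from all 6 libraries (filled circles) and with strand class as batch term (open squares). From all 6 libraries the MAFK interval runs from 0.18 to 0.52, and the intervals of CUL3, NFE2L2, BACH1, BACH2 and MAFG include 0.

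The number of regulators that passed was highest, over the 15 other settings, without control 1. In that fit 4 of the 10 passed (MAFK and NFE2L3 higher, KEAP1 and SQSTM1 lower) beside 20.8% of all genes. In the fit with the strand batch 0 passed, beside 0.199% of all genes. At an unadjusted edgeR p under 0.05 that fit held 3 of the 10, beside 1824 of the 14582 genes tested. The direction of KEAP1, SQSTM1, NFE2L1, NFE2L2, NFE2L3, BACH1 and MAFK was the same in all 15 other settings, while CUL3, BACH2 and MAFG each changed sign in at least 1.

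**Figure D3:**
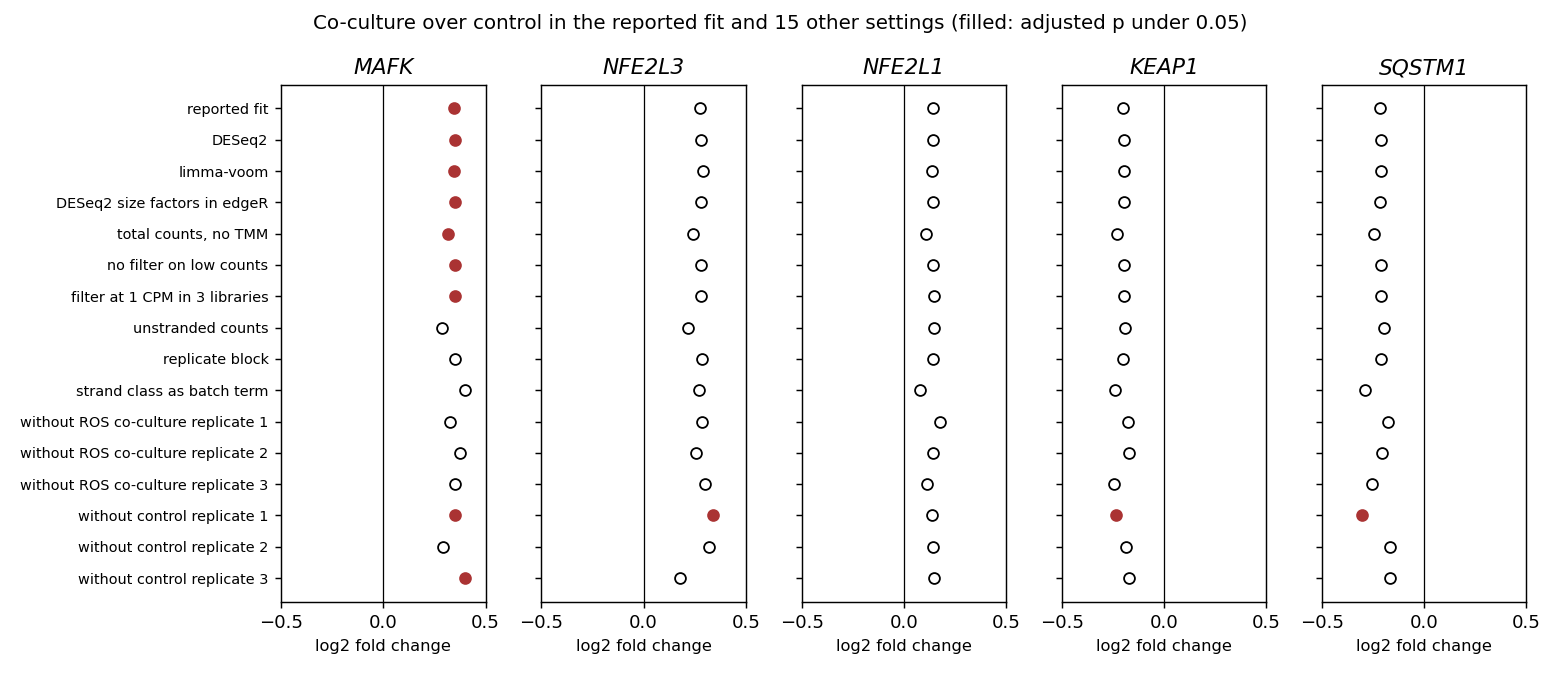
Log2 fold change (x axis, co-culture over control) of 5 regulators in the reported fit and 15 other settings, 1 row per setting, with filled points for an adjusted p under 0.05. MAFK passes in 8 of the 15 other settings, NFE2L3, KEAP1 and SQSTM1 in 1 (without control 1) and NFE2L1 in 0.

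Levels of different genes were compared per kilobase of the longest GENCODE release 29 transcript, an approximation because the annotation behind the counts is not given in the sources used here. In the controls NFE2L1 was the most abundant regulator at 79.4 ± 0.514 CPM per kb (SD, n = 3). SQSTM1 followed at 52.7 ± 5.88 CPM per kb and NFE2L2 at 28.0 ± 1.35 CPM per kb. These 3 levels did not overlap. The third activator, NFE2L3, was lower still at 10.0 CPM per kb, so on this scale NFE2L1 RNA was the main one of the 3 activators in these cells. KEAP1 and CUL3, at 22.7 ± 1.11 and 22.0 ± 2.41 CPM per kb, overlapped in the controls. MAFG (13.8 ± 2.33 CPM per kb) and BACH1 (13.4 ± 1.28 CPM per kb) also overlapped, and no other neighbours in this order did. NFE2L3, MAFK and BACH2 came last at 10.0 ± 1.20, 7.98 ± 0.577 and 4.76 ± 0.268 CPM per kb. NFE2L1 thus stood 16.7-fold above BACH2, the lowest. In co-culture the order of the means was the same except that KEAP1 and CUL3 changed places (19.7 and 21.6 CPM per kb), as did MAFG and BACH1 (14.2 and 14.6 CPM per kb).

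Ratios of reads within a library do not depend on how libraries are scaled, and they are given as values without a test. The log2 ratio of NFE2L2 to KEAP1 reads was 0.26, 0.26 and 0.25 in controls 1, 2 and 3 and 0.64, 0.69 and 0.36 in co-culture libraries 1, 2 and 3. The activator therefore stood 1.19 to 1.20 reads to 1 read of its inhibitor in the controls and 1.28 to 1.61 to 1 in co-culture, with no overlap and with library 3 nearest to the controls. KEAP1 alone was also separate in CPM, and neither gene passed in edgeR. How often the ratios of other gene pairs separate was not computed. The ratio of BACH1 to NFE2L2, repressor to activator, overlapped, at -0.14 to -0.01 in the controls and -0.13 to 0.06 in co-culture on the log2 scale. NFE2L1 to NFE2L2 overlapped as well (2.21 to 2.32 against 2.18 to 2.46). The KEAP1 to CUL3 log2 ratio was -1.24 to -1.04 in the controls and -1.40 to -1.20 in co-culture. The MAFG to MAFK log2 ratio was 1.10, 1.46 and 1.51 in controls 1, 2 and 3 and 0.98, 1.09 and 1.12 in the co-culture libraries, where control 1 was the 1 control among the co-culture values.

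**Figure D4:**
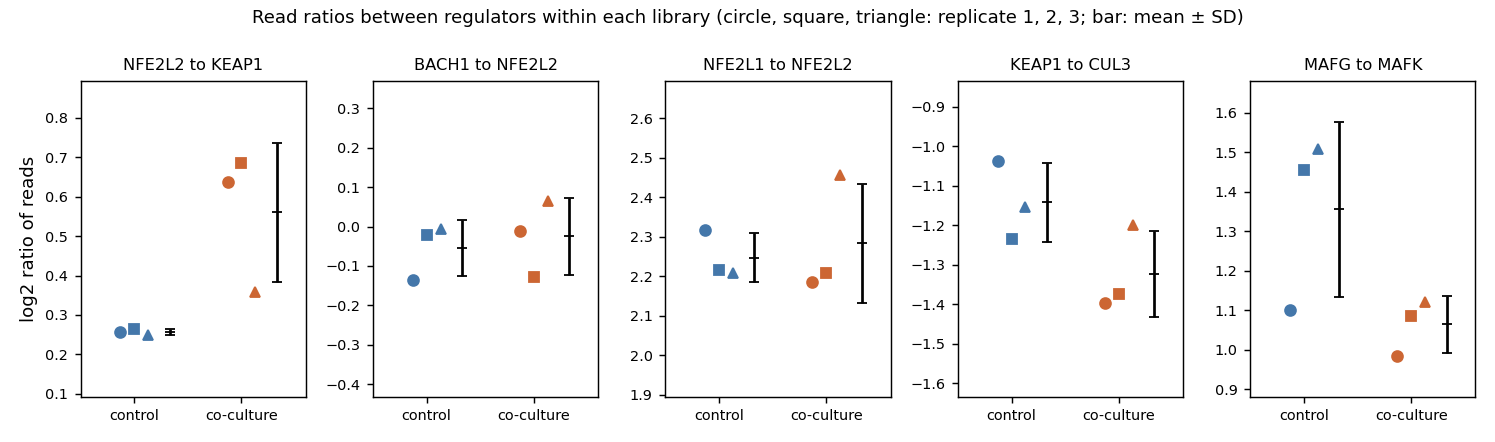
Log2 ratio of reads between pairs of regulators (y axis, panels of equal span) in each control and co-culture library, with bars for the mean ± SD. NFE2L2 to KEAP1 is the 1 ratio of 5 in which the groups do not overlap, at 0.25 to 0.26 in the controls and 0.36 to 0.69 in co-culture. The share of other gene pairs that separate was not computed.

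Other genes of the pathway were read from the same fit. There 4.83% of all 14582 genes passed, 23.2% had an unadjusted p under 0.05, and 7353 genes had a negative difference. DESeq2 called 6 of the listed genes (the 5 that edgeR called and CREBBP) and limma-voom the same 5 as edgeR, so each list given with 0 below, apart from the co-activators, had 0 in those tools too. Without control 1, 17 listed genes passed, beside 20.8% of all genes. Of the 12 genes of NRF2 ubiquitination and turnover, 0 passed and 11 had a negative difference, with a median log2 difference of -0.06. The smallest p was that of UBE2M, an enzyme that attaches NEDD8 to cullins, at 82.9 ± 3.75 CPM in co-culture against 93.3 ± 1.23 CPM in the controls (edgeR log2 fold change -0.17 with SE 0.06 and adjusted p 0.119). Of the 6 other KEAP1-binding proteins 0 passed, and IKBKB, a kinase of the NF-kB pathway that KEAP1 can bind, had the smallest p (0.18, SE 0.07, edgeR adjusted p 0.139). At an unadjusted p under 0.05 each of these lists held 1 gene, the one named.

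Of the 9 tested genes that process NFE2L1, which is pulled from the membrane, deglycosylated and cut before it enters the nucleus, 0 passed and 1 had an unadjusted p under 0.05. This was UFD1L, now named UFD1, a cofactor of the segregase VCP, with a log2 fold change of -0.21 (SE 0.08, adjusted p 0.160 in edgeR). UFD1L passed in 1 of the 15 other settings, without control 1 (-0.31, edgeR adjusted p 0.000449), where 20.8% of all genes passed. NPLOC4, the partner of UFD1 in that cofactor, passed there too. The median of the list was -0.03, and 0.00 without control 3. The proteasome subunits, which NFE2L1 is known to induce, numbered 32, and 0 of them passed (1 at an unadjusted p under 0.05). Their differences ran from -0.12 to 0.16 with a median of 0.02, which was -0.02 without control 1, -0.01 without co-culture library 3 and -0.01 with total counts. PSMD14, a deubiquitinase of the proteasome lid, had the smallest p, at 156 ± 2.29 against 139 ± 12.03 CPM (edgeR log2 fold change 0.16 with SE 0.07 and adjusted p 0.200).

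Of the 10 tested partners and co-activators 0 passed, and 5 had an unadjusted p under 0.05, against 23.2% of all genes. CREBBP, an acetyltransferase recruited by NRF2, had the smallest p. Its mean was 152 ± 1.88 CPM beside the DAAO cells against 183 ± 22.2 CPM in control samples (edgeR log2 fold change -0.28 with SE 0.08 and adjusted p 0.0749). CREBBP passed in 3 of the 15 other settings. These were without control 1 (-0.36, edgeR adjusted p 0.000237), in DESeq2 (-0.27, adjusted p 0.0314) and with total counts (-0.31, edgeR adjusted p 0.0352). Without control 3 CREBBP stood at -0.18 (edgeR adjusted p 0.145), and with the batch term at -0.29 without passing. MAFF, the other small MAF gene, is named after its values were seen. It had 2.88, 1.88 and 1.07 CPM in controls 1, 2 and 3 and 4.0, 2.80 and 3.85 CPM in co-culture libraries 1, 2 and 3, a low level with overlapping groups (edgeR log2 fold change 0.90 with SE 0.31 and adjusted p 0.115).

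Of the 16 autophagy partners of SQSTM1, 2 passed and both rose, beside 4.83% of all genes past the threshold. The median of the list was 0.03, and -0.01 with total counts. TBK1, the kinase that phosphorylates SQSTM1, had 45.6, 52.3 and 53.7 CPM in controls 1, 2 and 3 and 67.9, 66.7 and 58.9 CPM in co-culture libraries 1, 2 and 3 (edgeR log2 fold change 0.35 with SE 0.08 and adjusted p 0.0392). GABARAPL1, a lipidated autophagosome protein that SQSTM1 binds, had 91.4, 80.0 and 77.1 CPM in controls 1, 2 and 3 and 109, 97.2 and 106 CPM in co-culture (edgeR log2 fold change 0.33 with SE 0.08 and adjusted p 0.0353). The groups of both genes were separate. With the batch term their log2 fold changes were 0.43 and 0.39 (edgeR adjusted p 0.233 and 0.234), and neither passed once control 2 or co-culture library 1 or 2 was removed. GABARAPL1 was also lost without control 3 (0.28) or co-culture library 3 (0.32), and with total counts (0.29).

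Haem is the ligand that removes BACH1 from DNA, so genes of haem synthesis and breakdown were listed with it. Of 14 tested genes 3 passed, 1 higher and 2 lower, beside 4.83% of all genes past the threshold. ALAS1, the enzyme of the committed step of haem synthesis, fell, from 45.4, 42.5 and 48.0 CPM in controls 1, 2 and 3 to 34.2, 34.6 and 37.0 CPM in co-culture (edgeR log2 fold change -0.36 with SE 0.07 and adjusted p 0.0216). UROS, a later enzyme of the same pathway, had a control mean of 40.2 ± 1.88 CPM and fell to 30.6 ± 0.474 CPM beside the DAAO cells (edgeR log2 fold change -0.40 with SE 0.07 and adjusted p 0.0118). FLVCR1, known as a haem exporter, had a control mean of 57.6 ± 1.74 CPM and rose to 69.1 ± 0.680 CPM (edgeR log2 fold change 0.26 with SE 0.06 and adjusted p 0.0330). The median of the list was -0.08, and the remaining 11 genes did not pass. That median was 0.01 without control 1 and -0.04 without co-culture library 2. With the batch term the log2 fold changes of ALAS1, UROS and FLVCR1 were -0.41, -0.41 and 0.27 and none of them passed (edgeR adjusted p 0.232, 0.217 and 0.292), nor did any once control 2 or co-culture library 1 or 2 was removed. FLVCR1 was also lost without control 3 (0.24) or co-culture library 3 (0.28).

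Of 24 tested targets of NRF2, 0 passed and 6 had an unadjusted p under 0.05, against 23.2% of all genes. In the list 13 had a positive and 11 a negative difference, and the median log2 difference was 0.03. The median was -0.04 without control 1, 0.06 without control 2, 0.07 without control 3 and 0.00 with total counts. Of the 6, 4 were higher (among them TKT at 0.21, ME1 at 0.24 and TXN at 0.15) and 2 lower (HMOX1 and, at 0.997 to 2.88 CPM, AKR1C1 at -0.92), of which TKT, ME1, TXN and AKR1C1 are named after their values were seen. The smallest p was that of HMOX1, the haem-degrading enzyme that BACH1 represses, with 17.3, 25.4 and 22.2 CPM in controls 1, 2 and 3 and 15.8, 17.0 and 16.8 CPM in co-culture. Its co-culture values lay below all controls, control 1 being the nearest, at a log2 fold change of -0.39 (SE 0.13, adjusted p 0.100 in edgeR). HMOX1 passed in 1 of the 15 other settings, without control 1 (-0.52, edgeR adjusted p 0.000512), where 20.8% of all genes passed. Without control 2 it was -0.26 (edgeR adjusted p 0.330), and with the batch term -0.46 without passing. The targets GCLC and TKT also passed without control 1, and their log2 differences over all 6 libraries were -0.19 and 0.21.

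**Figure D5:**
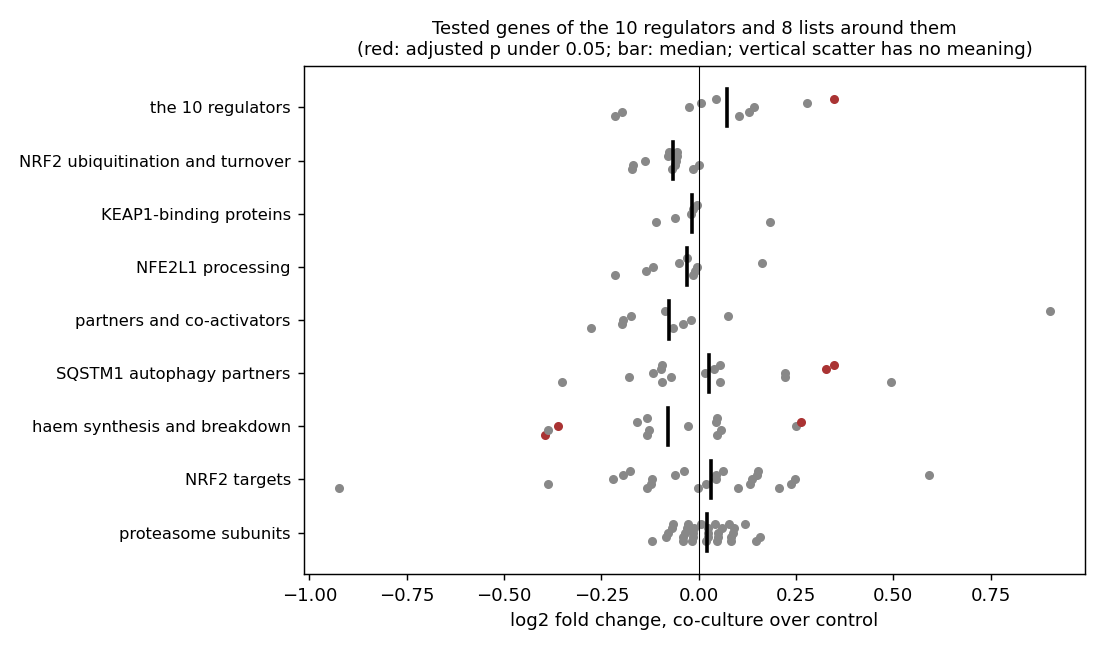
Log2 fold change (x axis, co-culture over control) of the 10 regulators and of the tested genes of 8 lists around them, with red points for an adjusted p under 0.05 and a bar at each median. Red points are MAFK, TBK1, GABARAPL1, FLVCR1, ALAS1 and UROS, and the list medians lie between -0.08 and 0.03, those of 5 lists (NFE2L1 processing, SQSTM1 autophagy partners, haem, NRF2 targets and proteasome) changing sign in at least 1 other setting.

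The genes whose levels followed a regulator most closely over the 6 libraries were taken from 11646 others with a mean of at least 5 CPM, by Pearson's r of log2 CPM with TMM scaling. These values describe 6 libraries that fall into 2 groups and differ in depth, and many genes reach a high r there. For MAFK they were ATP9A (r = 0.993), ACACA (r = 0.992) and C6orf70 (r = 0.992), and 71 genes had an r over 0.95. For KEAP1 they were SUPT5H (r = 0.995), REXO4 (r = 0.994) and GPAA1 (r = 0.993), with 194 genes over 0.95. For NFE2L2 they were NSUN6 (r = 0.991), DNAJC2 (r = 0.989) and ZNF382 (r = 0.988), with 56 genes over 0.95. With scaling by total counts the genes named for MAFK kept ranks 1, 2 and 3, while SUPT5H, REXO4 and GPAA1 ranked 6, 3 and 10 for KEAP1, and NSUN6, DNAJC2 and ZNF382 ranked 4, 2 and 3 for NFE2L2. Among the regulators themselves KEAP1 and SQSTM1 had the highest r, 0.923, and KEAP1 and NFE2L3 the lowest, -0.872.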

How the data were processed

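Gene counts of 6 libraries were used as the authors deposited them: raw read counts per gene, 1 file per sample, in 3 columns (without strand, forward, reverse). The submitters' processing notes name FastQC, STAR 2.53a and hg18, without roles, and the annotation is not given in the sources used here. RNA was extracted with TriPure and a stranded mRNA kit was used, per the labels' protocols. The reverse-strand column was analysed; the summary lines (unmapped, multimapping, no gene, ambiguous) were left out of library sizes, 6.48% to 8.42% being multimapping and 14.8% to 17.7% without a gene. Multimapping and ambiguous reads stand in those lines and in no gene, per the file headers.

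All genes were fitted in edgeR 4.0.16 (R 4.3.3) with filterByExpr (minimum count 10), which kept 14582 genes, TMM scaling, robust quasi-likelihood F tests with group as the only term, and Benjamini-Hochberg adjustment at 0.05. Standard errors were taken from F (SE² = squared log2 fold change over F). The intervals have a level of 95%. DESeq2 1.42.0 and limma 3.58.1 served as alternatives. A read was worth 0.0279 to 0.0521 CPM, and intervals and counts cover reads without molecular identifiers. Within-group pairs of libraries differed by a chi-square per degree of freedom of 4.56 to 17.7, so each counted as a sample. The code was tested on simulated data.

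Regulators and lists were chosen with earlier results of these data known. Named were the 10 regulators, from each list at most 4 genes that passed, or else the one of smallest p, and the 3 genes most like KEAP1, NFE2L2 and the regulator of smallest p (MAFK). Of the listed genes, 1 (UFD1) was found under an older symbol.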

Additional observations from a re-analysis of the deposited data

How the results depend on the processing

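Over the 15 other settings the number of regulators past the threshold was 1 in 7 of them (MAFK each time), 4 without control 1, and 0 in the other 7, among them unstranded counts, the replicate block and the batch term for strand class; leaving out 1 library gave 0 to 4. All genes past the threshold numbered 704, 164 with the replicate block, 29 with that batch term, and 65 to 3069 when 1 library was left out (65 without control 2, 74, 123 and 321 without co-culture libraries 2, 1 and 3, and 3069 without control 1). Listed pathway genes past the threshold numbered 5, 0 with the replicate block, 0 with the batch term, and 0 to 17 when 1 library was left out. The labels do not say whether replicate numbers pair the samples. Deviations of same-numbered libraries from their group means correlated at -0.0515, -0.112 and -0.119. With 3 libraries in each group these values cannot decide whether same-numbered samples were handled together. MAFK had a log2 fold change of 0.35 with the block (edgeR adjusted p 0.0830). Scaling by total counts gave 35.1% of calls as higher against 55.1%, and moved the median gene to -0.04. The sign of 3 regulators changed. BACH2 had a log2 fold change of -0.0285 with total counts, and from -0.0288 (without control 3) to 0.0516 (without control 1) when 1 library was left out, with -0.00466 without control 2 and -0.000699 without co-culture library 3. CUL3 had 0.0131 with the batch term, and from -0.111 (without control 1) to 0.0356 (without control 2), with 0.00821 without control 3. MAFG had from -0.0667 (without control 1) to 0.182 (without control 3). For these changes the cause was not tested. The 5 read ratios moved by less than 1 SD in each of their settings.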
